A study of Mus musculus with 2 samples.

Results

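Open chromatin at 10 endothelial identity genes was compared between control and Brg1-deficient cells of the mouse kidney. The genes were Erg, Fli1, Sox7, Sox17, Sox18, Pecam1, Cdh5, Tie1, Emcn and Plvap, 10 of 21883 protein-coding genes on the nuclear chromosomes. A peak was assigned to a gene when its summit lay inside the gene, or lay within 100 kb and was nearer to an end of that gene than to an end of any other protein-coding gene. This gave 71 of the 77529 control peaks and 63 of the 61210 peaks of the Brg1-deficient library.

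The study had 2 ATAC-seq libraries, in which a transposase cuts accessible DNA, 1 per genotype. Both came from tdTomato cells of the Wnt4 lineage, sorted from kidneys at E18.5, late in gestation, with 50000 cells per reaction. One library has the genotype label WT control, and the other the label Brg1cKO/cKO (here cKO), a conditional deletion of the gene for Brg1, which drives nucleosome remodelling by BAF complexes. The labels do not give the Cre driver, the number of animals or whether animals were pooled, and the control library's cell type label reads only control.

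Endothelial cells line blood vessels. Their identity is set by ETS factors such as Erg and Fli1, which bind a GGAA core, together with SOXF factors (Sox7, Sox17 and Sox18) and GATA factors. These regulators act on genes for the junctions and surface of the vessel wall, among them Pecam1, Cdh5, Tie1, Emcn and Plvap. In the kidney such cells form the glomerular and peritubular capillaries. They are not nephron epithelium, and Wnt4 is known as a gene of the forming nephron and of stroma. Erg, Fli1 and Pecam1 are also known from blood cells.

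With a single library per genotype nothing could be tested between genotypes, and the differences given describe these 2 libraries. The lists hold called peaks without read counts, and depth is unknown. In a bulk sort, fewer cells of a type and less open chromatin per cell cannot be told apart. All 20 nephron genes examined had peaks in both libraries, and Wnt4 itself had 20 control and 16 cKO peaks. The 10 endothelial identity genes, 30 further endothelial genes and 10 stromal genes all had peaks in both as well. Over the whole protein-coding set, the share with a peak was 76.3% in the control library and 74.5% in the cKO library. The presence of peaks at nephron genes therefore does not check the sort. Smarca4, which encodes Brg1, had 3 control and 2 cKO peaks; called peaks do not check the deletion.

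Promoter sequence was at hand for 3 of the 10 genes, Erg with 3 annotated starts, Emcn and Tie1 (RefSeq, GRCm38.p6, the assembly of mm10). The 250 bases before the start are shown 5′ to 3′ for the 4 windows that lay wholly under a peak in both libraries. These were chosen because, of the windows at hand, only they had a called peak over them in both genotypes. Capitals mark matches on either strand to 4 short motifs, which do not overlap here. One run of letters searched for ETS factors was CCGGAA. Another for ETS factors was CAGGAA. The run searched for SOX factors was AACAAT. That searched for GATA factors was AGATAA.
Erg, outer start, chr16:95586594-95586843, minus strand: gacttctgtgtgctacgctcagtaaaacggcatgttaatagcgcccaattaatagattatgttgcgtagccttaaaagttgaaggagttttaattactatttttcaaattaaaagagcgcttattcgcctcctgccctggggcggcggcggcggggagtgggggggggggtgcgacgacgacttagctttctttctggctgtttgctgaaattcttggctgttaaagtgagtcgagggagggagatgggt
Erg, internal start, chr16:95459349-95459598, minus strand: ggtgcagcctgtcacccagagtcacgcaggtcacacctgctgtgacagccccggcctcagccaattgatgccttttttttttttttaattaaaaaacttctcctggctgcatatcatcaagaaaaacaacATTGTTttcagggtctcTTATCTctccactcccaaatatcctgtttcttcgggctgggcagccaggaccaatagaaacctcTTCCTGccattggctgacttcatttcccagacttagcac
Emcn, chr3:137340828-137341077, plus strand: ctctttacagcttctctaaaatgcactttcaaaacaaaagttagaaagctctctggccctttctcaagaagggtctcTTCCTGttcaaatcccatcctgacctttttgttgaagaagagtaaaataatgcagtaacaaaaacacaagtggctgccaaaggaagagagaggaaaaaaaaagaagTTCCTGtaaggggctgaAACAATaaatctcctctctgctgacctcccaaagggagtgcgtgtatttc
Tie1, chr4:118489850-118490099, minus strand: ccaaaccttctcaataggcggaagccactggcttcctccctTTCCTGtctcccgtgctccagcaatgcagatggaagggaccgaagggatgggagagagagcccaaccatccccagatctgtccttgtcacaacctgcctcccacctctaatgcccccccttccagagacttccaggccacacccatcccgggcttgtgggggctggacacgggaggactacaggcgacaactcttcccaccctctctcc

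The internal Erg window held 1 match each to the latter ETS run, the SOX run and the GATA run. The Emcn window held 2 of that ETS run and 1 of the SOX run, and the Tie1 window held 1 of the ETS run. No match to these letters stood in the outer Erg window. Among 21262 such windows of protein-coding genes, the latter ETS run stood in 24.5% and the former in 15.0%, the GATA run in 8.81% and the SOX run in 8.22%. The remaining Erg window, at chr16:95530366-95530615, had no peak and no match. A peak touched 65.1% of all windows in the control library and 63.9% in the cKO library.

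Most peaks of the 10 genes were called in both libraries. Of the 71 control peaks, 59 overlapped a cKO peak by at least 1 bp (83.1%, exact 95% interval 72.3 to 91.0%), and 12 did not. Over the whole control list 25.9% of peaks had no cKO counterpart. Peaks of the same strength, taken as 10 classes by the peak caller's p, would give 73.9% found. That value lies inside the interval. The interval covers only counting error and takes peaks of the same gene as independent, so it does not show that the members equal the list. Of the 63 cKO peaks, 57 had a control counterpart (90.5%, 80.4 to 96.4%) and 6 had none, where the whole cKO list had 5.92% without a counterpart and equal strength gave 93.0% found.

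**Figure D1:**
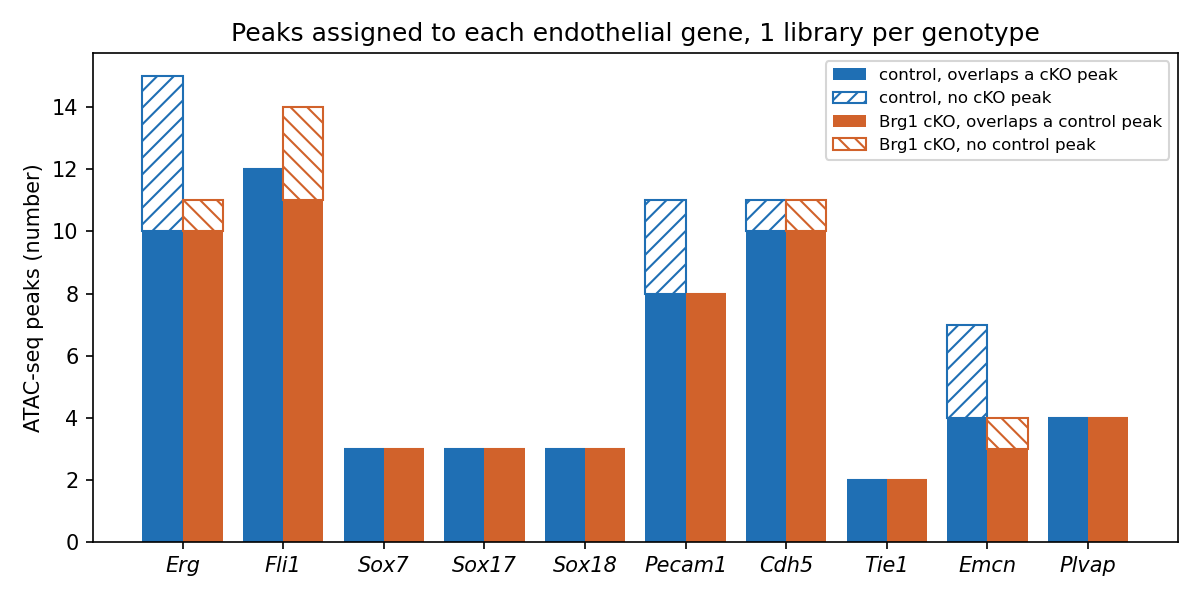
Number of ATAC-seq peaks assigned to each gene (vertical axis) in the control library (blue) and the Brg1 cKO library (orange); filled parts overlap a peak of the other library and hatched parts do not. Fli1, Sox7, Sox17, Sox18, Tie1 and Plvap have no hatched control part, and Erg has the tallest, 5 of 15 peaks.

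Every control peak was found at 6 of the 10 genes (27 of 27 peaks at Fli1, Sox7, Sox17, Sox18, Tie1 and Plvap). Among all genes with at least 2 control peaks, 38.0% had every control peak found, and 53.0% of genes with at least 1 control peak did. The 12 unmatched peaks lay at Erg (5), Pecam1 (3), Emcn (3) and Cdh5 (1). The cKO library held fewer peaks than the control at 3 genes, the same number at 6 and more at 1. Across genes with a control peak, 45.1% had fewer cKO peaks and 5.88% had more.

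Summed over the 10 genes, bases covered differed less than peak numbers, although more genes had fewer bases than had fewer peaks. The peaks of the 10 genes covered 72.8 kb in the control and 68.7 kb in the cKO library, a ratio of cKO to control of 0.944. The median ratio per gene was 0.933, from 0.742 at Pecam1 to 1.16 at Fli1, against a median of 0.910 over 16705 genes with a control peak. At 9 genes fewer bases were covered in cKO, where 71.9% of all genes had fewer. None of the 10 genes differed by 1.5-fold or more, while 16.6% of all genes were lower and 1.95% higher by that much.

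**Figure D2:**
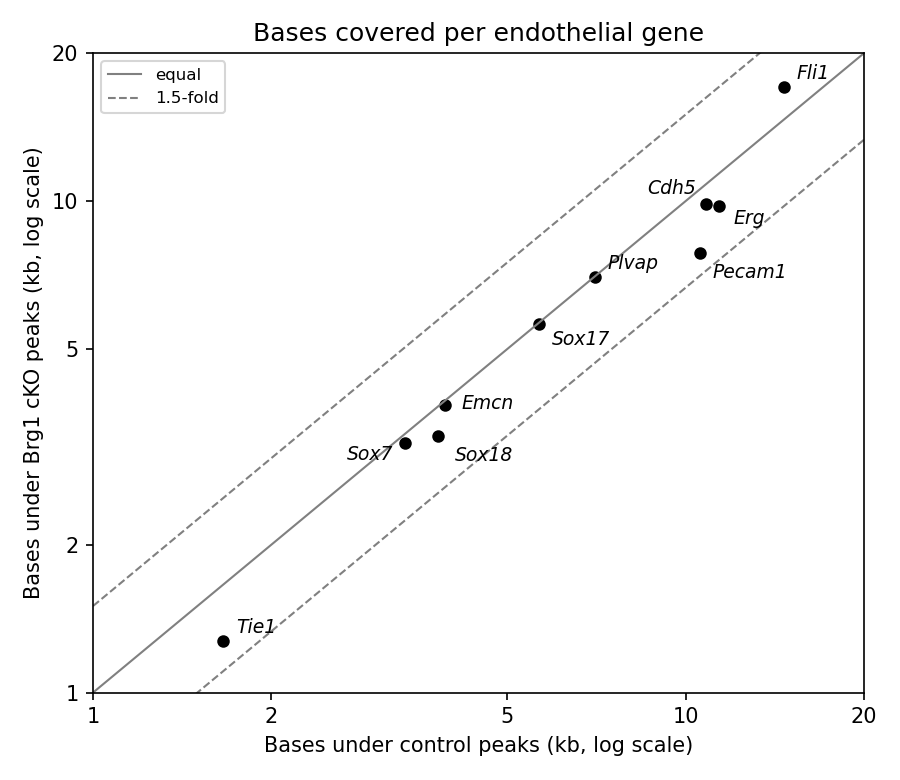
Bases under the peaks of each gene in the control library (horizontal, kb, log scale) and the Brg1 cKO library (vertical, kb, log scale); the solid line marks equal values and the dashed lines a 1.5-fold difference. All 10 genes lie between the dashed lines, with Fli1 above the solid line and Pecam1 and Tie1 nearest to the lower dashed line.

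The values depended on how much of each list was used. Against the full cKO list, 35 of the 37 member peaks in the more significant 50% of the control list were found. Both lists were then limited to their more significant 50%, which also drops weaker cKO counterparts. There 23 of 37 control peaks were found (62.2%, where strength gave 62.4%), and the ratio of total bases was 0.712. Over all genes the median ratio per gene was 0.940 there, a measure unlike the members' total. Gene by gene, only Sox17, at 0.992, and Pecam1, at 1.05, lay above that median. The other members ran from no cKO bases at Emcn to 0.853 at Plvap. All control peaks gave 24.6% not found in the same setting. In that setting Erg was at 0.457 and Cdh5 at 0.368, while Emcn went from 480 bases in 1 control peak to no cKO peak. These 3 of 10 genes were lower by 1.5-fold or more, against 18.2% of all genes in the same setting. When the weakest control peaks were left out until both lists were equally long, the members' ratio was 1.06. The median per gene over all genes was then 0.971. Leaving out control peaks alone can only raise the members' ratio, so that setting cannot decide the sign of the difference. The size of the members' difference in bases thus depended on the setting.

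The 5 transcription factor genes had 36 control peaks, of which 31 were found, and 34 cKO peaks, of which 30 were found. They covered 38.8 kb in the control and 39.0 kb in the cKO library. Only Fli1 covered more bases in cKO, 17032 against 14620, and Erg, Sox7, Sox17 and Sox18 each covered fewer.

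Erg (chromosome 16, 95359169 to 95586600) encodes an ETS factor that maintains endothelial identity and junctions. It had 15 control and 11 cKO peaks, which covered 11362 and 9781 bases, a ratio of 0.861. The peak at its outer end was 1890 bp wide in the control (chr16:95585046-95586935) and 2087 bp in cKO (chr16:95585047-95587133). The peak over the internal start was narrower in cKO, 861 bp against 1295 bp, with summits 12 bp apart. Both promoters printed above were therefore covered in both genotypes.

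The 5 unmatched Erg peaks were narrow, between 200 and 438 bp. Of these, 2 lay outside the lower-coordinate end, the nearer one 6.62 kb away (chr16:95350574-95350773 and chr16:95352210-95352647). The other 3 lay inside the gene, at chr16:95403422-95403787, chr16:95422667-95423070 and chr16:95466636-95467028. The nearest cKO peak began 35092 bp past the first of these and ended 2358 bp before the last. One cKO peak of 410 bp, at chr16:95597603-95598012, had no control counterpart. All other Erg peaks, 10 in each library, paired 1 to 1.

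Fli1 (chromosome 9, 32422204 to 32543432), the ETS factor most closely related to Erg, was the only member with more bases in cKO. It had 12 control and 14 cKO peaks, covering 14620 and 17032 bases, a ratio of 1.16. Every control peak was found. At its higher-coordinate end the control had 2 broad peaks of 3700 and 2463 bp, 104 bp apart (chr9:32539988-32543687 and chr9:32543792-32546254). In cKO 1 peak of 6766 bp (chr9:32539622-32546387) spanned both, which was the widest peak of any member.

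Of the 6 member cKO peaks without a control counterpart, 3 belonged to Fli1. One lay inside the gene (chr9:32518901-32520019, 1119 bp), and 2 lay outside, at chr9:32561556-32562052 (497 bp) and chr9:32564613-32565668 (1056 bp). A control peak began 156 bp past the end of the first of these outside peaks. Together these 3 peaks held 2672 bases, and the Fli1 cKO peaks with a counterpart held 14360, close to the 14620 of the control. In the more significant 50% of each list the Fli1 ratio was 0.733, so the direction at Fli1 differed between the settings.

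**Figure D3:**
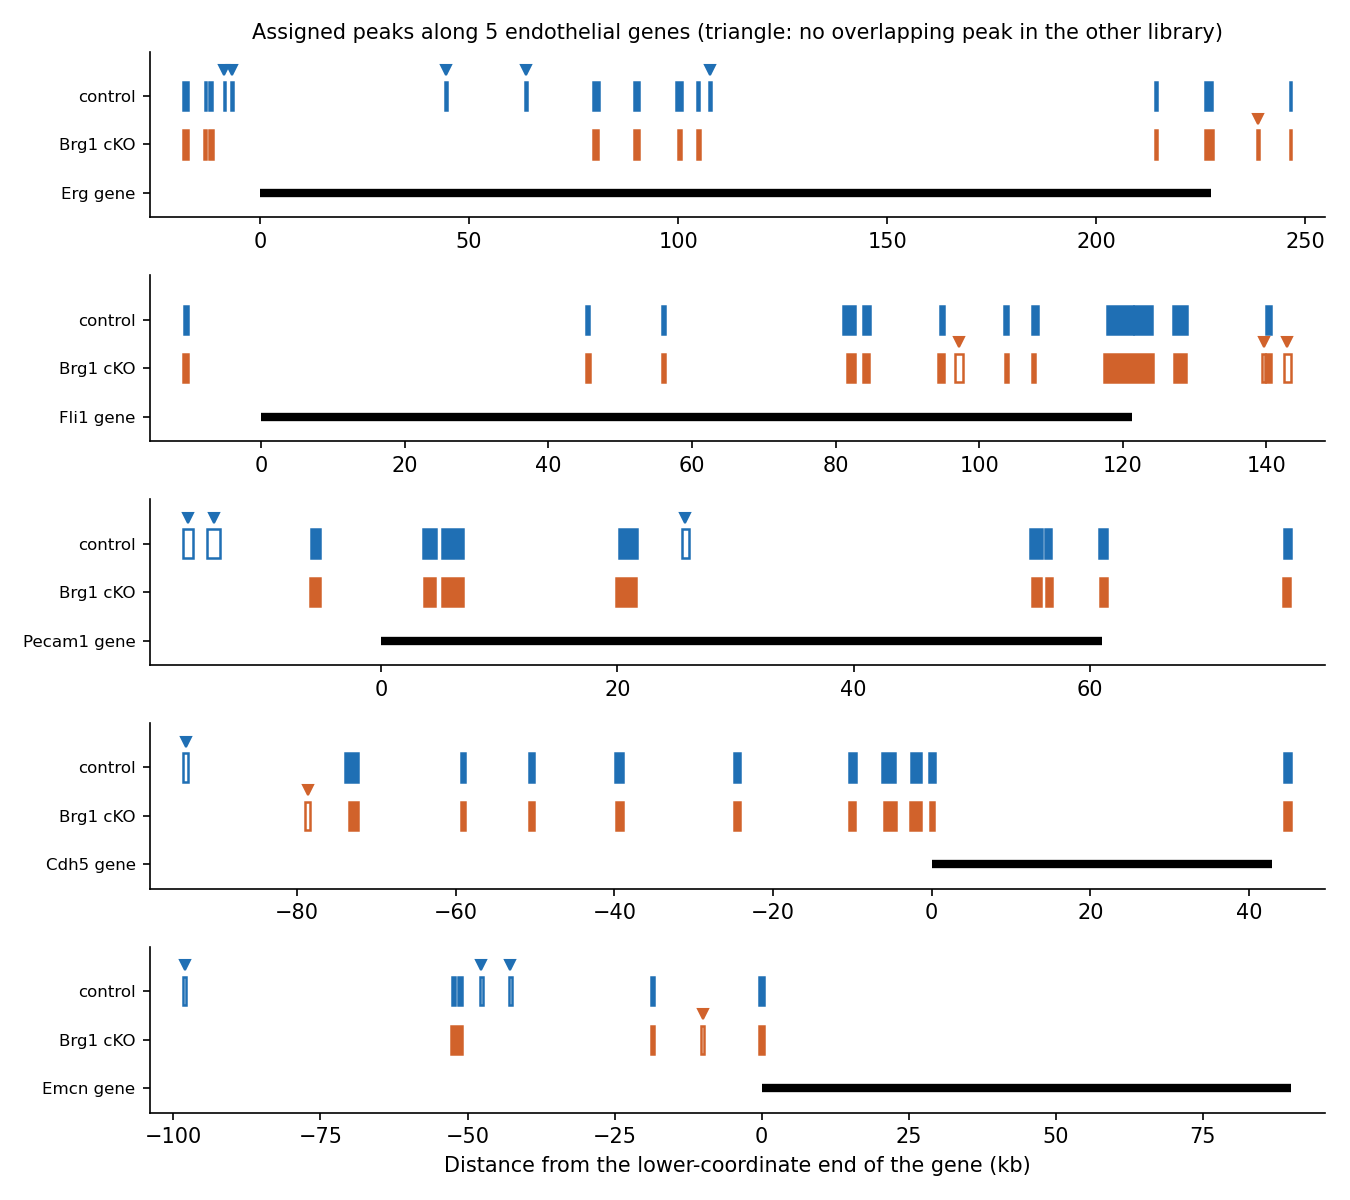
Peaks along 5 genes, in kb from the lower-coordinate end of each gene (black bar), for the control (blue) and Brg1 cKO (orange) libraries; open boxes under a triangle have no overlapping peak in the other library. The 12 control and 6 cKO peaks marked in this way all lie away from the gene ends, and the peak at an end of each gene is present in both libraries.

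The SOXF genes had equal peak numbers in both libraries. Sox7, Sox17 and Sox18 each had 3 peaks in each library, and all 9 control and 9 cKO peaks overlapped the other library. They covered 12.8 kb in the control and 12.1 kb in cKO, a ratio of 0.946.

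Sox17 (chromosome 1, 4490928 to 4497426), a factor of arterial endothelium, had control peaks of 2280, 1947 and 1426 bp and cKO peaks of 2292, 1851 and 1466 bp. Its most significant peak lay 74.4 kb from the gene (chr1:4571233-4572658 in the control) and was in strength class 9 of 10 in both lists. Sox7 (chromosome 14, 63943706 to 63950732) had peaks of 541, 2071 and 748 bp in the control and 568, 2006 and 639 bp in cKO. Its gene-end peak began at the same base in both, chr14:63942306. The ratio of cKO to control width ran from 0.854, at the outer Sox7 peak, to 1.05 over the 6 peaks of both genes.

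Sox18 (chromosome 2, 181669837 to 181671640), a factor of vascular and lymphatic development, covered 3819 and 3319 bases, a ratio of 0.869. The peak over its higher-coordinate end was 1897 bp in the control and 1924 bp in cKO. The next peak was narrower in cKO, 567 bp against 863 bp. The outermost control peak (chr2:181675344-181676402, 1059 bp) met 2 cKO peaks, one of 828 bp assigned to Sox18 and one of 348 bp (chr2:181676366-181676713) assigned to its neighbour Tcea2. The 348 bp of the latter peak do not count toward Sox18.

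The 5 genes of surface proteins had 35 control peaks, of which 28 were found, and 29 cKO peaks, of which 27 were found. They covered 34.0 kb in the control and 29.8 kb in cKO, a ratio of 0.877.

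Pecam1 (chromosome 11, 106654213 to 106715281), which encodes the adhesion protein CD31, had the lowest ratio, 0.742, from 10557 bases in 11 control peaks to 7835 in 8 cKO peaks. The 3 control peaks without a counterpart were 810, 1147 and 543 bp wide. A pair of them lay beyond the lower-coordinate end (chr11:106637440-106638249 and chr11:106639431-106640577), and the other lay inside the gene (chr11:106679697-106680239). All 8 cKO peaks overlapped a control peak. The peak at the higher-coordinate end was 705 bp in the control and 592 bp in cKO, with the summit at the same base. In the more significant 50% of each list the Pecam1 ratio was 1.05. The 3 unmatched peaks, with −log10 p from 4.29 to 4.89, lay in the weaker 50% of the control list.

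Cdh5 (chromosome 8, 104101613 to 104144504) encodes VE-cadherin, the adherens junction protein of endothelium. It had 11 peaks in each library, 10 matched 1 to 1, and covered 10804 and 9837 bases, a ratio of 0.910. No summit lay inside the gene: 10 of the 11 control peaks ran from 94.2 kb before its lower-coordinate end up to that end, and 1 lay beyond the other. The gene-end peak was narrower in cKO, 473 bp (chr8:104101429-104101901) against 796 bp (chr8:104101255-104102050). A peak 72.8 kb away was also narrower, 1112 bp against 1712 bp. The unmatched peaks were the outermost of each library, of 620 bp in the control (chr8:104007287-104007906) and 657 bp in cKO (chr8:104022622-104023278).

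Tie1 (chromosome 4, 118471191 to 118489849), an orphan receptor tyrosine kinase of the angiopoietin pathway, had 2 peaks in each library. The peak at its start was 979 bp in the control (chr4:118489395-118490373) and 615 bp in cKO (chr4:118489684-118490298), with summits 10 bp apart, and both covered the promoter window printed above. The other peak was 680 bp and 659 bp. Coverage was 1659 and 1274 bases, a ratio of 0.768 with no difference in peak number.

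Emcn (chromosome 3, 137341062 to 137431069) encodes endomucin, a sialomucin of capillary and venous endothelium. It had 7 control and 4 cKO peaks, yet coverage was nearly equal, 3922 and 3842 bases. Control peaks of 498 and 703 bp, 454 bp apart, lay under 1 cKO peak of 1924 bp (chr3:137288167-137290090). The start peak was 870 bp in the control and 862 bp in cKO. Control peaks of 462, 383 and 480 bp between 42.7 and 98.0 kb from the gene had no counterpart, nor did a cKO peak of 584 bp at chr3:137330712-137331295.

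Plvap (chromosome 8, 71497753 to 71511806), which encodes the diaphragm protein of fenestrated endothelium, had 4 peaks in each library, all matched. They covered 7037 bases in the control and 6998 in cKO, a ratio of 0.994. Its peaks were 2255, 2263, 1459 and 1060 bp wide in the control and 2140, 2373, 1490 and 995 bp in cKO. Of the 4 peaks, 2 were assigned to the adjoining gene Gtpbp3 and 1 to Gm46041 as well, so they are not particular to Plvap.

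The 12 unmatched control peaks had a median width of 450 bp, against 947 bp for the matched ones. They held 8.58% of the control bases of the 10 genes, and the 6 unmatched cKO peaks held 6.29% of the cKO bases. None of the unmatched peaks had its summit within 1000 bp of an end of its gene. Of all member peaks, only 10 of 71 in the control and 10 of 63 in cKO had. The nearest unmatched peak was 6.62 kb away in the control and 10.2 kb in cKO. All 10 genes had a peak within 1000 bp of an end in both libraries. Any control peak was assigned to 76.3% of protein-coding genes, and any cKO peak to 74.5%. A control peak there was called at 67.6% of all protein-coding genes, and of those genes 2.49% had none in cKO.

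Strength within the list went with being found. The control list was split by p into 5 equal groups; from weak to strong, 9 of 13, 8 of 14, 17 of 19, 19 of 19 and 6 of 6 member peaks were found in cKO. The whole control list gave 38.3%, 56.4%, 81.2%, 94.8% and 99.9%. In the weakest group the members' 69.2% had an interval of 38.6 to 90.9%, whose lower end lay just above the list's 38.3%. For cKO peaks the counts were 9 of 14, 16 of 17, 15 of 15, 16 of 16 and 1 of 1. Thus all 6 unmatched cKO peaks lay in the weaker 2 groups, and 10 of the 12 unmatched control peaks did. With each list divided at its median p, 2 of 37 member control peaks in the stronger part had no counterpart (4.98% of all such peaks), and 10 of 34 in the weaker part (46.7%). For cKO peaks the counts were 0 of 23 (0.108% of all) and 6 of 40 (11.7%).

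**Figure D4:**
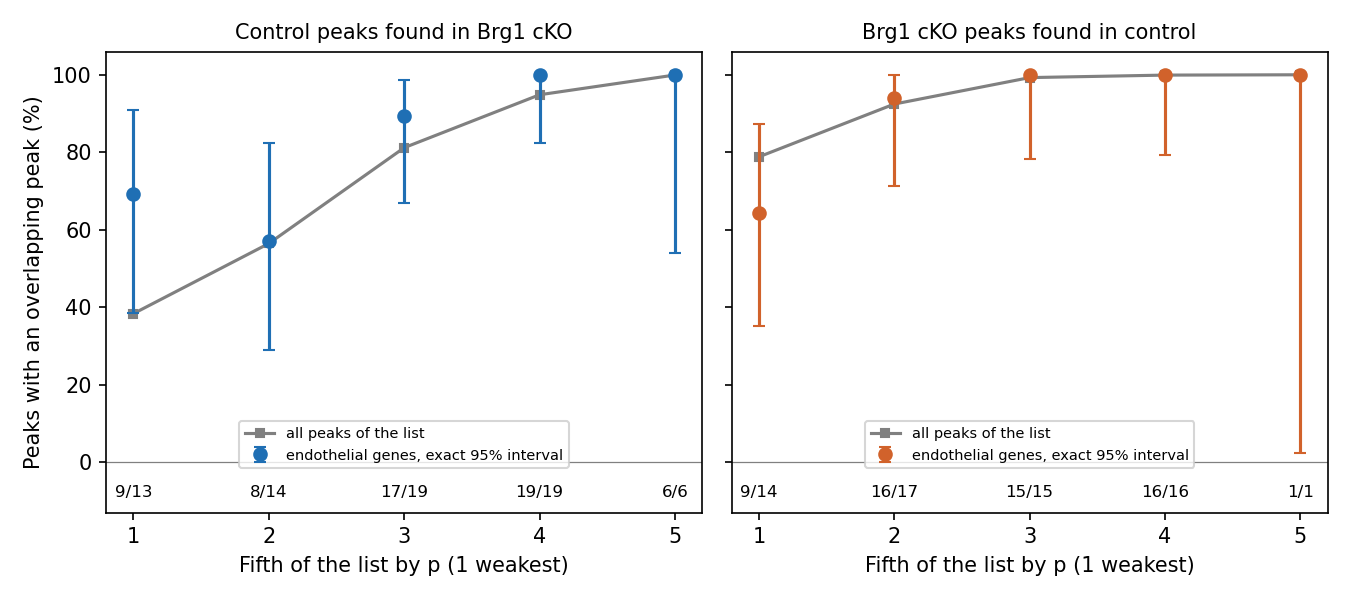
Share of peaks with an overlapping peak in the other library (vertical, %) by 5 equal groups of each list in the order of the caller's p (horizontal, 1 weakest), for all peaks (grey squares) and peaks of the 10 genes (circles, with exact 95% intervals and counts below). The interval includes the value of the whole list in every group but the weakest control group, at 69.2% against 38.3%.

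Widths of matched peaks were compared for the 54 pairs in which 1 control and 1 cKO peak met. The cKO peak was narrower in 33 of the 54 pairs (61.1%), as in 58.1% of 54820 such pairs over the genome. The median ratio of cKO to control width was 0.986 at the members and 0.982 overall. Individual pairs ran from 0.578, at a Fli1 peak of 771 bp in the control, to 1.46, at a Fli1 peak of 513 bp. Summits were within 100 bp of each other in 47 of the 54 pairs, where 87.3% of all pairs were, and the median distance was 13 bp. The shared peaks of these genes thus mostly had their summits at the same place in both genotypes.

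**Figure D5:**
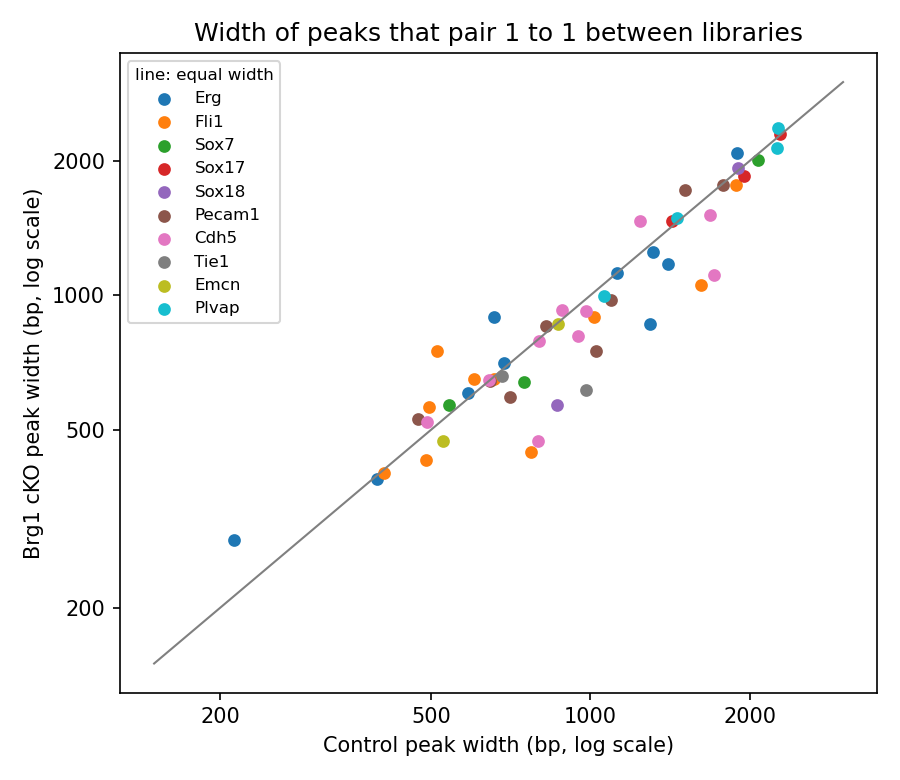
Width of each of the 54 member peaks that pair 1 to 1 in the control (horizontal, bp, log scale) and the Brg1 cKO library (vertical, bp, log scale), coloured by gene; the line marks equal width. Points lie on both sides of the line, 33 of 54 below it.

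The coverage ratio of other endothelial genes was below that of the 10 members with the full lists and above it with the more significant 50% of each list. A list of 30 further genes had 260 control peaks, of which 207 were found (79.6%, 74.2 to 84.3%; 75.8% by strength), and 216 cKO peaks, of which 207 were found. Their ratio of bases was 0.852 in total and 0.900 as a median. With the more significant 50% of each list the total was 0.837, where the members were at 0.712. While 16.6% of all genes were lower and 1.95% higher by 1.5-fold or more, 7 of the 30 listed genes were lower and 0 of 30 higher. The lowest ratios among those with at least 3 control peaks were at the haematopoietic and endothelial cofactor gene Lmo2, 0.566 with 6 of 11 control peaks found, and at the von Willebrand factor gene Vwf, 0.593 with 6 of 12. The highest were at Ehd3, 1.06, and at the Notch ligand gene Dll4, 1.05 with all 5 found. A gene-end peak was called at 29 of the 30 genes in the control and 28 in cKO, the difference being Vwf. Whether the members differ from these genes was not tested.

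Genes of blood and immune cells, which share Erg, Fli1 and Pecam1 with endothelium, were also counted. Of 15 such genes, 11 had assigned peaks in each library, and Cd68, Hbb-bt, Itgam and Gata1 had none in either. This was close to the share of all protein-coding genes with a peak, 76.3% in the control and 74.5% in cKO. At Cd68 a peak assigned to another gene lay within 1000 bp of an end in both libraries. The list had 62 control peaks with 43 found (69.4%, 56.3 to 80.4%, with 72.9% by strength). Its ratio of bases was 0.824 in total and 0.901 as a median. Csf1r was at 0.510 and Runx1 at 0.649, while Vav1 was at 1.15 and the leukocyte gene Ptprc at 1.63. A gene-end peak was called at 7 of the 15 in the control and 6 in cKO. The part of such cells in the peaks of the 10 genes was not tested.

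Nephron and stromal genes were read in the same way. The 20 nephron genes had 162 of 235 control peaks found (68.9%, 62.6 to 74.8%, with 72.6% by strength). Their ratio of bases was 0.724 in total and 0.877 as a median. Podxl alone covered 54910 bases of the list's 374 kb in the control and 13008 bases of its 271 kb in cKO. Where 16.6% of all genes were lower by 1.5-fold or more, 4 of these 20 were. Among them were the podocyte genes Podxl at 0.237 and Nphs1 at 0.378, and the highest were Lhx1 at 1.11 and Pou3f3 at 1.14. The 10 stromal genes had 83 of 100 found (83.0%, 74.2 to 89.8%, with 74.9% by strength). Their ratio was 0.965 in total and 0.996 as a median. Zeb2 was at 0.698, Acta2 at 0.784, Pdgfra at 1.08 and Meis1 at 1.16. None of the stromal genes was lower by 1.5-fold or more and 1 was higher, Col3a1 at 2.39 with 2 control and 4 cKO peaks, named here after its value was seen. The members' total ratio of 0.944 lay between the totals of both lists. With the more significant 50% of each list it was below both, at 0.712 against 0.726 (nephron) and 0.919 (stromal). The interval of the members, 72.3 to 91.0%, overlapped those of the nephron and of the stromal list, and no difference between lists was tested.

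At the edge of the assignment rule, the farthest control peak that counted lay 98.0 kb from Emcn (462 bp, not found). The first beyond it lay 101 kb from Cdh5 (chr8:104000036-104000615, 580 bp, not found). In cKO the corresponding distances were 78.7 kb at Cdh5 and 190.4 kb at Emcn.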

How the data were processed

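ATAC-seq was measured in 2 libraries of sorted Wnt4-lineage kidney cells, although the labels enter the source as transcriptomic. The submitters' processing notes name Genrich, Trim Galore and SAMtools and the build mm10. The aligner, settings, treatment of duplicates and shift of read ends are unstated, and depth is unknown. The deposited lists give, per peak, a score capped at 1000 (not used), a signal that is the area under the caller's curve (at least 200, used only to break ties in rank), and −log10 p and q values (p used only for ranks within a list, with the authors' cutoffs unknown). Positions are the authors', printed 1-based.

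Gene positions were those of RefSeq on GRCm38.p6, in a table without strand, so both gene ends were used. Peaks overlapping by at least 1 bp counted as found. Intervals of shares are Clopper-Pearson (exact, 95%) and cover only counting error. No motif was sought outside the promoter windows, since no genome was used. The other genes named are, from each comparison list, the 2 lowest and 2 highest in ratio of bases among those with at least 3 control peaks, plus genes without peaks, Smarca4 and Wnt4; neighbours of members are named where a peak is shared. The 10 members, the comparison lists and the alternatives were chosen with earlier results of these data known. Counts of lost peaks and bases were tested on the control list with known peaks removed. Overlap and assignment were compared with direct counts for random control peaks. Python 3.11.15, pandas 2.3.3 and SciPy 1.17.1 were used.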

Additional observations from a re-analysis of the deposited data

How the results depend on the processing

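The 7 alternatives gave 136 values of 21 summary results, of which 116 stayed within the counting interval of a share or within 1.5 times of a count, ratio or width, and 20 did not. Extending them to the comparison lists and to counts of genes past 1.5-fold was decided after the data were seen. With the more significant 50% of each list, the members had 37 control and 23 cKO peaks, median widths of 1312 and 1466 bp, a share of control peaks found of 62.2% and 3 genes lower by 1.5-fold; the fewer peaks follow from the construction. In that setting the other endothelial list had 100% of cKO peaks found and the blood list 85.3% of control peaks. Of all peaks, 95.2% in the cKO list and 75.4% in the control list were found there. With both lists made equally long, control peaks were found in 88.1% (other endothelial), 88.1% (blood), 82.0% (nephron) and 92.3% (stromal) of cases. There cKO peaks were found in 76.2% (members), 89.8%, 82.6% and 88.1% (other endothelial, blood and nephron). All control peaks gave 83.6% and all cKO peaks 84.3% with lists of equal length. Equal strength gave 81.2% for the members' cKO peaks. With overlap of 50% of both peaks, control peaks were found in 61.7% (nephron) and 74.0% (stromal), where all control peaks gave 69.8%. At that overlap cKO peaks were found in 89.8% (other endothelial) and 82.4% (nephron), where all cKO peaks gave 88.4%. The cause was not tested. Over the alternatives the members' control share ran from 62.2 to 86.0% and the ratio of bases from 0.712 to 1.06. No paired analysis was possible because each genotype had 1 library. Unknown depth limits every statement on a missing peak, which is not shown to be closed chromatin.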
